A study of Mus musculus with 2 samples.

Results

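Arginine metabolism was examined through 6 mouse genes, Slc7a2, Arg1, Arg2, Nos2, Ass1 and Odc1, which were listed by name and found in both single-cell count matrices, among 26124 genes in all. The cells came from lineage-depleted bone marrow (BM) of C57BL/6 mice aged 8 to 10 weeks. All cultures, controls included, received GM-CSF at 20 ng/ml, a growth factor that drives marrow progenitors towards dendritic cells, macrophages and granulocytes. On culture day 3, either 300 µM heme bound to albumin (heme) or albumin alone (control) was added. Each group was 1 library that pooled 5 cultures, told apart by DNA-tagged antibodies (hashtags) named for days 0, 3, 4, 5 and 7 of culture. The labels list harvests on days 4, 5 and 7, whereas the exposure times in the design text do not match day 5, so culture days are used here. Days 0 and 3 precede the exposure and give the background of each library. By the study's description, the cultures were started on staggered days and collected together, so the days of a library are separate cultures and not repeated samples of a single dish.

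Arginine enters myeloid cells through cationic amino acid transporters, and the pathways that use it compete for the same substrate. Arginases split it into ornithine and urea, and ornithine feeds the synthesis of polyamines and proline. The inducible nitric oxide synthase instead turns it into nitric oxide and citrulline, from which arginine can be made again. Arg1 and Nos2 are widely used as opposing markers of macrophage states.

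Neither group had a replicate library, so the differences have no replicate check and no test across cultures was possible. Levels are the unique molecular identifiers (UMIs, 1 per captured transcript) of a gene per 1000000 gene UMIs of a culture (CPM), summed over barcodes called as carrying 1 hashtag. The 95% intervals are exact and cover counting error only. A ratio of heme to control was called at 2-fold or more among genes whose UMIs in the compared cultures summed to at least 20. The cultures held 1716 to 3155 control cells and 1877 to 3464 heme cells, with 19140367 to 41970208 and 25004562 to 75505515 gene UMIs. A count of 0 allows up to 3 UMIs, or 0.0715 to 0.157 CPM per control culture and 0.0397 to 0.120 CPM per heme culture. Cells with over 5000 genes made up 1.92% to 8.34% of control barcodes and 16.4% to 33.9% of heme barcodes. The libraries share 112 barcodes, of which 49 carried 1 hashtag in both, and no count of called members differed by over 1.5 times without them. Counts of other pathway genes were not repeated without these barcodes. For genes at 10 CPM or more, the heme to control ratio had a median log2 value of 0.33 on day 0, 0.30 on day 3 and 0.18 to 0.26 afterwards. A member at an equal CPM in both libraries therefore lay below the median gene.

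The labels were checked on marker genes. Hmox1, the heme oxygenase gene that heme induces, was at 84.1 CPM in control and 5137 CPM in heme on day 7. It was at 1.83 and 124 CPM on day 0, before exposure, which was 5.56% of the mean level of the heme library. On day 0, erythroid and progenitor markers were present in both libraries, and cells with UMIs of 2 or more erythroid markers numbered 607 (control) and 534 (heme). On day 7, no macrophage, neutrophil or mature dendritic marker was at 0 in either library. All 4 mature dendritic markers were past 2-fold lower in heme, with a summed level of 923 CPM in control and 108 CPM in heme. Of 7 neutrophil markers, 6 were past 2-fold higher, with sums of 3844 and 15674 CPM. Of 9 macrophage markers, 4 were past 2-fold higher and 3 lower, with sums of 802 and 1450 CPM. The lower macrophage markers were the complement genes C1qa, C1qb and C1qc, and the higher ones included Marco and Spic. In summed values, fewer cells of a type and less RNA per cell cannot be told apart, and the part of these cell markers in the results on the members was not tested beyond the splits by marker status given further on.

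The 2 arginase genes are close enough in function that it matters whether the counts can separate them. Arg1 (ENSMUSG00000019987) lies on the minus strand of GRCm38 at chr10:24915221-24927484, and Arg2 (ENSMUSG00000021125) on the plus strand at chr12:79130777-79156301, each with 8 exons. Their coding sequences, of 969 and 1062 bases, aligned over 962 bases with 62.1% identity, and the longest run of shared bases was 12.

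No other annotated gene aligned to Arg1, Arg2, Slc7a2 or Nos2 over 300 bases at 90% identity or more. Ass1 had 1 such copy, the processed pseudogene Gm5424, and Odc1 had 11 pseudogenes, none of which is listed in the matrices. Reads shared with these copies may have been left out or assigned to the parent gene, so the levels of Ass1 and Odc1 are uncertain to that extent. The matrices count transcript ends, so levels are compared between cultures and not between genes.

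Among the members, 5 reached the UMI minimum on days 0 to 5 and all 6 on day 7. On day 0, 1 of 5 (Slc7a2) was past 2-fold higher and 0 were lower, where 16.9% of all genes tested were higher and 0.713% lower. On day 3, 0 were higher and 1 (Arg1) was lower, against 6.68% and 0.351% of all genes. On day 4, 0 were higher and 1 (Arg1) was lower, against 11.1% and 1.67%. On day 5, 1 (Slc7a2) was higher and 2 (Arg1 and Odc1) were lower, against 10.5% and 3.56%. On day 7, 1 (Arg2) was higher and 3 (Arg1, Slc7a2 and Nos2) were lower, against 15.2% and 7.32%. The members' median log2 ratio was 0.08, 0.19, 0.13, 0.25 and -0.88 on days 0, 3, 4, 5 and 7, and that of all genes tested was 0.48, 0.38, 0.35, 0.25 and 0.30. The plots of levels and of ratios by culture day show that the members did not move as a group.

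**Figure D1:**
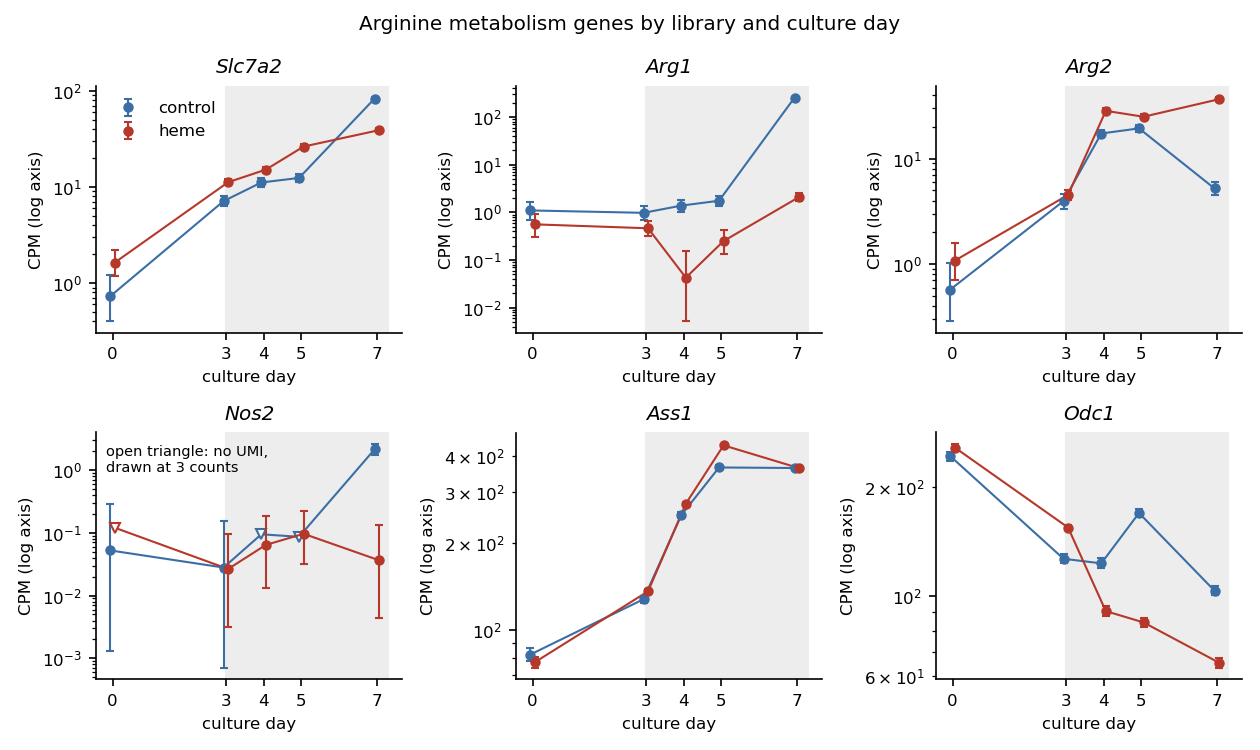
Level of each member (CPM, log axis) against culture day in the control (blue) and heme (red) libraries, 1 culture per point, with 95% Poisson intervals as bars. The grey area follows the addition of heme on day 3 and open triangles mark cultures with no UMI, drawn at 3 counts. Arg1 reached 255 CPM in the control culture of day 7 and 2.09 CPM in the heme culture, while Arg2 was at 5.22 and 36.6 CPM.

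Slc7a2 encodes a cationic amino acid transporter (CAT2) that supplies arginine to activated macrophages (chr8:40862396-40922308, plus strand, 12 exons). In the control library its level was 0.731, 7.15, 11.2, 12.5 and 83.5 CPM on days 0, 3, 4, 5 and 7. In the heme library it was 1.64, 11.2, 15.2, 26.4 and 39.2 CPM. Both courses went up with culture time, but the control culture had its main step between days 5 and 7, by 6.70-fold (interval 6.06 to 7.42), where the heme culture went up 1.48-fold (interval 1.38 to 1.59). The day 0 ratio of heme to control was 2.24, from 14 and 41 UMIs, and it was 1.57 on day 3 and 1.36 on day 4. It was 2.12 (interval 1.90 to 2.37) on day 5 and 0.469 (interval 0.445 to 0.495) on day 7. The libraries thus changed order after day 5, with the heme culture higher on all earlier days, those before exposure included. Divided by the median ratio of all genes, the ratio was 1.79, 1.28, 1.14, 1.87 and 0.392 on days 0, 3, 4, 5 and 7. The day 0 levels were 2.62% (control) and 8.13% (heme) of the mean level of their library. The part of free RNA from other cells of the pool in them was not tested. The day 5 value moved with the cells and scaling used. It was 1.07 within the gene and RNA limits of the study methods, 1.60 with an equal weight per cell and 1.80 with DESeq2 size factors. The day 7 ratio stayed under 0.5 in all of these.

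**Figure D2:**
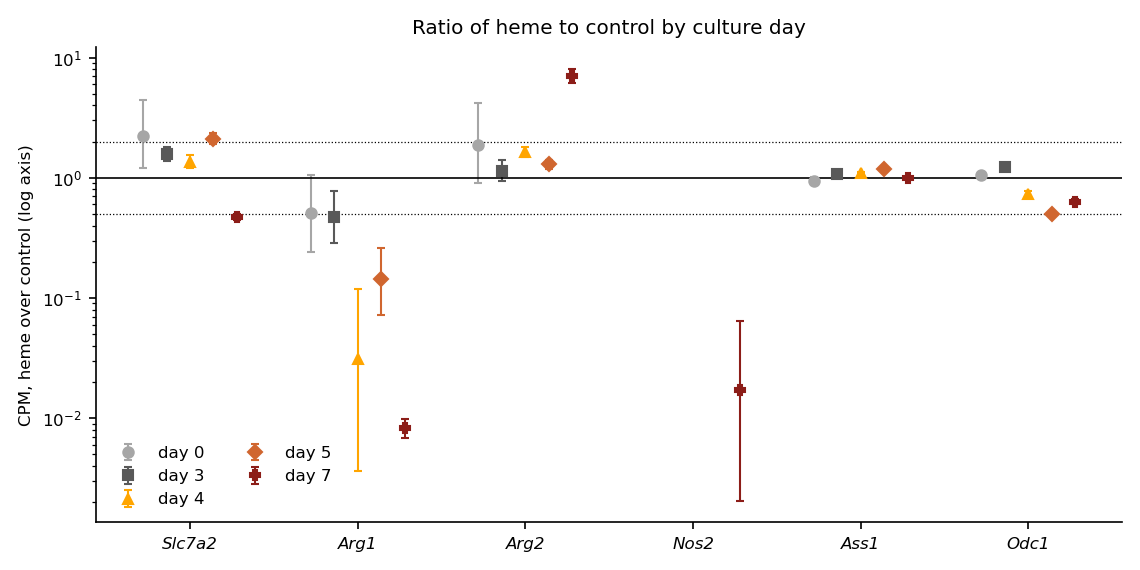
Ratio of heme to control CPM (log axis) for each member, with 1 point per culture day (shape and colour), 95% counting intervals as bars and dotted lines at 2-fold; points from fewer than 20 UMIs in total are not drawn. Slc7a2 crossed from 2.12 on day 5 to 0.469 on day 7, and Arg2 went from 1.29 to 7.01.

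Arg1 encodes the cytosolic arginase, a marker of alternatively activated macrophages. Its level in the control library was 1.10, 0.977, 1.38, 1.75 and 255 CPM on days 0, 3, 4, 5 and 7. Relative to day 0, the control level was 0.890-fold on day 3, 1.26-fold on day 4 and 1.60-fold on day 5, and each of these intervals included 1. It then was 146-fold higher on day 7 than on day 5 (interval 113 to 191). In the heme library, Arg1 was at 0.560, 0.464, 0.0427, 0.250 and 2.09 CPM, from 14, 35, 2, 13 and 115 UMIs. On day 7 the ratio of heme to control was 0.00821 (interval 0.00677 to 0.00986), from 115 and 10714 UMIs, and it was between 0.00676 and 0.0173 under all alternatives run. The ratios on days 3, 4 and 5, of 0.474, 0.0308 and 0.143, were taken at control levels close to that of day 0, which came to 1.65% of the mean level of the control library. These earlier ratios are given as values of low counts, and the part of free RNA from the day 7 cells of the same pool was not tested.

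Arg2 encodes the mitochondrial arginase. Its control level was 0.575, 3.96, 17.3, 19.4 and 5.22 CPM on days 0, 3, 4, 5 and 7. The heme level was 1.08, 4.53, 28.4, 24.9 and 36.6 CPM. Both libraries had a step between days 3 and 4, of 4.37-fold in control and 6.27-fold in heme. From day 5 to day 7 they parted, with the control level going to 0.270-fold (interval 0.230 to 0.314) and the heme level to 1.47-fold (interval 1.37 to 1.57). Heme against control, the ratio was 1.14 (interval 0.937 to 1.40) on day 3, 1.64 on day 4, 1.29 on day 5 and 7.01 (interval 6.09 to 8.10) on day 7. With an equal weight per cell the day 7 ratio was 3.56, still past 2-fold. On day 7 the arginases were therefore on opposite sides, with Arg1 lower and Arg2 higher in heme.

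Nos2 encodes the inducible nitric oxide synthase (chr11:78920787-78960254, plus strand, 27 exons). It had 1, 1, 0, 0 and 89 UMIs in the control cultures of days 0, 3, 4, 5 and 7, and 0, 2, 3, 5 and 2 UMIs in the heme cultures. Its day 7 level was 2.12 CPM in control and 0.0364 CPM in heme, a ratio of 0.0172 (interval 0.00205 to 0.0639). Nos2 was thus a low transcript detected above a few UMIs in the control culture of day 7 alone, and on the other days a difference was not detectable at this depth.

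Ass1 encodes argininosuccinate synthase, which with the product of Asl makes arginine from citrulline (chr2:31470207-31520672, plus strand, 16 exons). Its level was 82.2, 128, 250, 366 and 364 CPM in the control library and 77.3, 136, 274, 437 and 364 CPM in the heme library. Both libraries had a like step from day 3 to day 4, of 1.96-fold in control and 2.01-fold in heme. The ratio of heme to control was 0.941, 1.07, 1.10, 1.19 and 0.999 over the days, within 2-fold on all of them. Divided by the median ratio of all genes, it was 0.749, 0.863, 0.921, 1.05 and 0.835, so that the direction on days 3 and 4 depended on the scaling.

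Odc1 encodes ornithine decarboxylase, the rate-limiting enzyme of polyamine synthesis (chr12:17544794-17551505, plus strand, 12 exons). Its control level was 244, 127, 123, 170 and 103 CPM, and its heme level was 258, 155, 90.7, 84.4 and 65.3 CPM. It was the member with its peak on day 0, where cells with erythroid markers had 342 CPM and the others 112 CPM in control, against 378 and 137 CPM in heme. After addition of heme the libraries parted, with a day 4 level of 0.971-fold that of day 3 in control and 0.587-fold in heme. Before exposure the ratio of heme to control was 1.06 (day 0) and 1.22 (day 3), then 0.737 (interval 0.706 to 0.770) on day 4, 0.498 (interval 0.478 to 0.517) on day 5 and 0.632 (interval 0.604 to 0.660) on day 7. The day 5 value stood at the 2-fold limit, and it was 0.659 with an equal weight per cell and between 0.421 and 0.485 with the other scalings or within the limits of the study methods.

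The cells that carry each member were sorted by 3 marker genes. Csf1r, the receptor for M-CSF on monocytes and macrophages, and C1qb, a complement gene of macrophages, counted as present from 1 UMI. S100a8, a calcium-binding protein gene abundant in neutrophils, counted as high from 1% of the UMIs of a cell. These classes are ranges and not cell types, and 3.45% of control cells and 4.79% of heme cells of day 7 lay within a factor of 2 of the S100a8 limit. On day 7, Csf1r was present in 62.0% of control cells and 77.0% of heme cells. C1qb was present in 34.9% and 3.93%, and S100a8 was high in 5.36% and 17.4%. Thinned to 5000 UMIs per cell, the Csf1r shares were 45.4% and 56.9%, and the C1qb shares 30.4% and 1.77%, with 507 control and 353 heme cells left out as shallower.

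Arg1 in the control culture of day 7 sat in S100a8-low cells with Csf1r. Such cells without C1qb carried 57.5% of the Arg1 UMIs at 444 CPM, and those with C1qb carried 38.5% at 250 CPM. The same classes of the heme culture stood at 2.28 and 4.28 CPM. Arg1 was thus low in heme in both classes, and not only in the total. Cells with Csf1r held 336 CPM of Arg1 in control and 2.34 CPM in heme. Cells without Csf1r held 366 UMIs in control, at 32.7 CPM, and 0 UMIs in heme, where the upper bound of the ratio was 0.0196. When the heme levels of the classes were weighted by the control shares, the Arg1 ratio was 0.00955, and with the heme shares it was 0.00555.

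**Figure D3:**
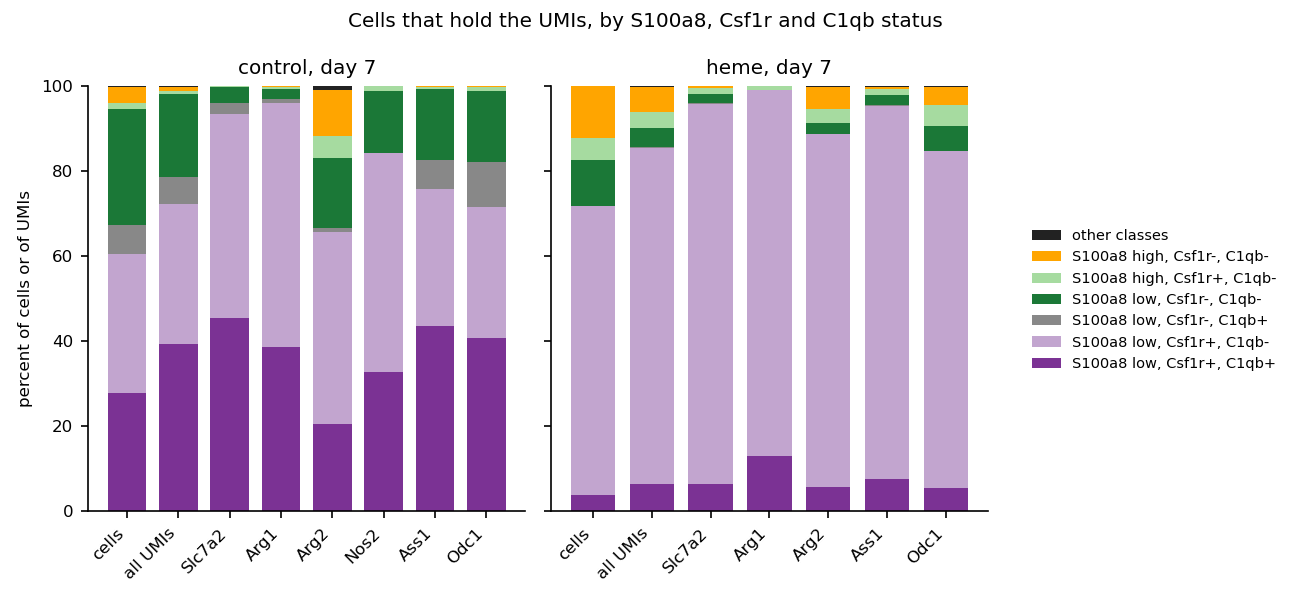
Stacked percent of cells, of all gene UMIs and of each member's UMIs by S100a8, Csf1r and C1qb class in the control and heme cultures of day 7; Nos2 is not drawn for heme, where it had 2 UMIs. In control, 57.5% of the Arg1 UMIs came from S100a8-low cells with Csf1r and without C1qb, which were 32.6% of cells. Those with both, 27.8% of cells, held 38.5%. In heme, 83.0% of the Arg2 UMIs came from the former class, which was 68.0% of cells. Its Arg2 level of 38.4 CPM was near the 36.6 CPM of the whole heme culture.

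Slc7a2 was carried by the same 2 classes, at 121 CPM without C1qb and 96.3 CPM with it in control, and 44.3 and 39.1 CPM in heme. Cells with Csf1r had 106 CPM in control and 42.6 CPM in heme on day 7, a ratio of 0.401, after 16.5 and 30.9 CPM on day 5, a ratio of 1.87. Cells without Csf1r stood at 20.5 and 9.83 CPM on day 7. The cells without Csf1r were mixed. The largest class of them in control, S100a8-low without C1qb, had 16.2 CPM in control and 19.7 CPM in heme, a ratio of 1.21 (interval 0.851 to 1.70). The lower day 7 level of Slc7a2 in heme was therefore found in the S100a8-low cells with Csf1r, and not in this class. Of the 89 Nos2 UMIs of the control culture, 76 came from cells with Csf1r, which were 62.0% of its cells. By class, S100a8-low cells with Csf1r and without C1qb had 3.32 CPM of Nos2. Those with both genes had 1.76 CPM (interval 1.18 to 2.53) and those with neither 1.58 CPM (interval 0.843 to 2.71). The last value rested on 13 Nos2 UMIs, with a UMI in 0.577% of the 866 cells of that class. A cell without a Csf1r UMI may still express the gene at this depth. Whether Nos2 was confined to cells that express Csf1r therefore cannot be told from these classes.

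In both libraries, most Arg2 UMIs came from S100a8-high cells on days 4 and 5 and from S100a8-low cells on day 7. S100a8-high cells were 64.0%, 51.9% and 5.36% of control cells on these days, and 70.4%, 53.6% and 17.4% of heme cells. In control, they had the higher Arg2 level on each of these days. The part of these shares in the lower control level of day 7 was not tested. On days 4 and 5, S100a8-high cells had 31.4 and 57.1 CPM in control and 38.4 and 59.0 CPM in heme, ratios of 1.22 and 1.03. S100a8-low cells had 3.93 and 5.07 CPM in control and 16.5 and 13.2 CPM in heme, ratios of 4.21 (interval 3.22 to 5.58) and 2.60 (interval 2.14 to 3.18). On day 3, before the exposure, the S100a8-low cells stood at 2.98 and 3.37 CPM. On day 7 the S100a8-high cells were at 45.4 and 32.2 CPM, a ratio of 0.710 (interval 0.496 to 1.04). The S100a8-low cells were at 4.42 and 37.1 CPM, a ratio of 8.38 (interval 7.19 to 9.81). The S100a8-high cells thus stayed within 2-fold on days 4, 5 and 7. Among S100a8-low cells, those with Csf1r and without C1qb had ratios of 4.66, 2.75 and 5.37 on these days. Those without either gene had ratios of 1.34 (interval 0.636 to 2.83), 0.442 (interval 0.223 to 0.824) and 4.77 (interval 3.05 to 7.54), so that on day 5 the direction in them was the opposite. With the control shares of the classes, the total day 7 ratio was 5.81, and with the heme shares it was 3.33.

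Odc1 also differed by S100a8 status. S100a8-low cells had 202, 216 and 104 CPM in control and 136, 89.6 and 65.6 CPM in heme on days 4, 5 and 7, ratios of 0.675, 0.415 and 0.629. S100a8-high cells had 39.8, 46.9 and 57.7 CPM in control and 52.1, 69.5 and 62.3 CPM in heme, ratios of 1.31, 1.48 and 1.08. Odc1 was thus lower in heme in the S100a8-low cells as a whole, and not lower in the S100a8-high cells, on each of these days, and the difference between the classes was not tested. In S100a8-low cells without Csf1r and C1qb, the day 7 ratio was 0.962 (interval 0.820 to 1.12), after 0.612 on day 4 and 0.431 on day 5. Ass1 in cells with Csf1r was at 380 CPM in control and 395 CPM in heme on day 7, whereas cells without Csf1r had 323 and 103 CPM, a ratio of 0.320 (interval 0.293 to 0.349). These cells were mixed, and the S100a8-low ones among them that also lacked C1qb, 866 in control and 310 in heme, had 310 and 198 CPM.

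The number of cells behind each level differed between genes. On day 7, 511 of 3155 control cells (16.2%, interval 14.9% to 17.5%) had an Arg1 UMI, with a mean of 21.0 UMIs in these cells, a maximum of 209, and 10 or more in 257 of them. In heme, 38 of 2900 cells (1.31%) had one, with a maximum of 17 and 10 or more in 3. Thinned to 5000 UMIs per cell, the shares were 14.7% and 0.550%. The day 0 cells of each library, at median depths of 9446 and 9771 UMIs, gave shares of 0.874% and 0.693%, or 0.485% and 0.0702% thinned. In heme, the day 0 level of Arg1 was 79.5% of the library mean. The heme level of day 4 was 0.0762-fold that of day 0 (interval 0.00840 to 0.332), so day 0 is no floor for that library. Day 0 cells with erythroid markers gave 1.15% and 0.375%, at median depths of 18296 and 22572 UMIs. The control shares of days 3, 4 and 5, of 1.57%, 1.69% and 1.78%, came to 0.496%, 0.617% and 0.630% thinned, all inside the interval of the thinned day 0 share (0.178% to 1.05%).

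**Figure D4:**
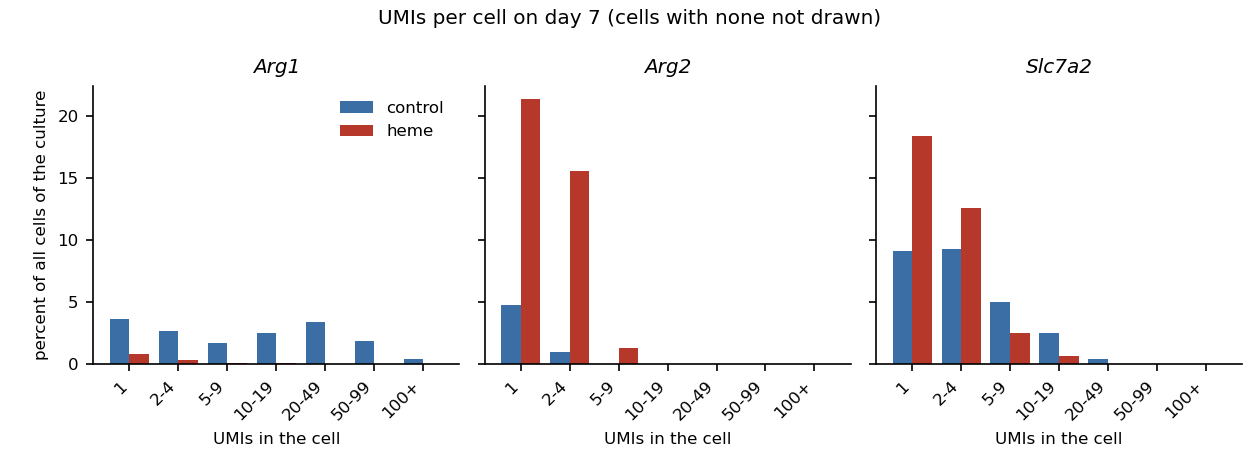
Percent of all cells of the day 7 cultures (control blue, heme red) by UMIs per cell of Arg1, Arg2 and Slc7a2; cells with no UMI are not drawn. Arg1 reached 209 UMIs in a control cell and 17 in a heme cell, while Arg2 stayed at 4 or fewer in control and 10 or fewer in heme.

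Arg2 was spread thinly over many heme cells. An Arg2 UMI was found in 5.77% of control cells and 38.2% of heme cells of day 7, or 2.23% and 17.4% thinned, with a maximum of 4 and 10 UMIs. The day 0 shares were 0.641% and 1.44%. Slc7a2 was found in 26.3% and 34.1% of the cells at full depth, where the heme cells were deeper (medians of 11831 and 16856 UMIs), and in 19.0% and 14.3% thinned. No order is read from the full-depth shares, which run against the CPM. Nos2 was found in 59 control cells (1.87%) and 2 heme cells (0.0690%). Ass1 was found in 81.8% and 79.1% of the cells, and Odc1 in 46.3% and 54.0%, or 30.5% and 25.3% thinned.

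The members were then read in the cells that carry Arg1. Of the control cells of day 7, 396 had 2 or more Arg1 UMIs and 2644 had none, at median depths of 14290 and 11372 UMIs. The carriers had 1679 CPM of Fn1, the fibronectin gene, against 245 CPM in the cells without, and 335 against 32.4 CPM of Slc7a2. Nos2 was at 8.45 against 0.806 CPM, and Ccr7, a gene of mature dendritic cells, at 9.51 against 202 CPM. Csf1r was present in 93.9% of the carriers and 56.4% of the others, and C1qb in 44.2% and 33.0%. Odc1 was at 63.2 against 113 CPM, Ass1 at 465 against 341 CPM and Arg2 at 5.58 against 5.28 CPM. Arg1 carriers were therefore Csf1r cells with more Slc7a2 and Fn1, while Arg2 was about equal in both sets of cells.

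Co-detection gave the same picture per cell. Of the control cells with an Arg1 UMI on day 7, 77.5% (interval 73.6% to 81.1%) had a Slc7a2 UMI, against 16.4% (interval 15.0% to 17.9%) of the cells without. Thinned to 5000 UMIs, the shares were 64.1% and 11.2%. Nos2 was found in 8.61% of the cells with Arg1 (44 cells) and 0.567% of those without (15 cells), or 3.85% and 0.310% thinned. Thus 44 of the 59 Nos2 cells also had an Arg1 UMI, although Nos2 was rare in both sets, and the cells with Arg1 were deeper (medians of 14375 and 11372 UMIs). Of the Nos2 cells, 84.7% had a Slc7a2 UMI, against 25.2% of the others. Arg2 was found in 7.24% of the cells with Arg1 and 5.48% of those without, and in 2.05% and 2.26% thinned. These shares describe cells of 1 culture, which are not replicates.

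In the heme culture of day 7, 489 cells had 2 or more Arg2 UMIs and 1792 had none. Csf1r was present in 95.1% of the former and 69.3% of the latter, at median depths of 21163 and 14982 UMIs. Marco, a scavenger receptor gene, was at 894 against 253 CPM, and S100a8 at 3035 against 9536 CPM. Only 14 heme cells had 2 or more Arg1 UMIs, with 100 CPM of Arg2 against 35.9 CPM in the heme cells without Arg1. Cells with UMIs of both Ccr7 and Fscn1, genes of mature dendritic cells, numbered 518 (16.4%) in control and 54 (1.86%) in heme. In control they had 33.7 CPM of Arg1 against 298 CPM in the other cells, and 8.69 against 97.9 CPM of Slc7a2. In heme they had 5.98 CPM of Arg2, from 5 UMIs, against 37.0 CPM in the others. In control the Arg2 levels were 3.24 CPM, from 22 UMIs, and 5.60 CPM. Leaving these cells out, the day 7 Arg1 ratio was 0.00714.

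Of 40 other genes of the pathway, 34 or 35 reached the UMI minimum on each day. On day 7, 3 of 34 were past 2-fold higher and 2 lower. On day 5, 1 was higher and 0 lower, on day 4 2 were higher and 0 lower, on day 3 0 were called either way, and on day 0 2 were higher and 0 lower. These shares are near or under those of all genes given above, and the median log2 ratio of the other genes was 0.04, 0.11, 0.01, -0.09 and -0.09 over the days.

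**Figure D5:**
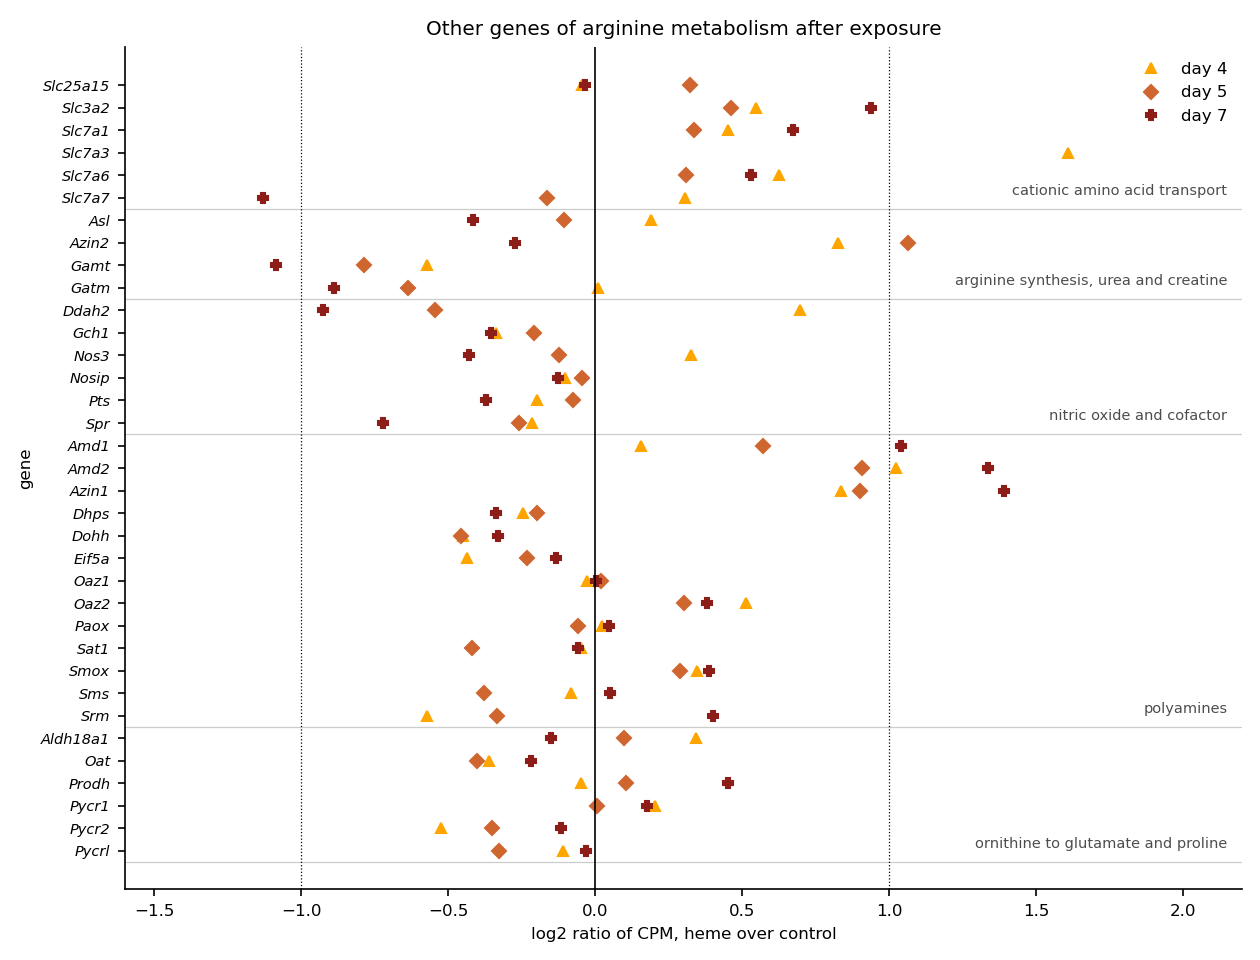
Log2 ratio of heme to control for each tested gene of the other pathway genes by group on days 4, 5 and 7, with dotted lines at 2-fold. Most genes lie within the lines, and on day 7 those outside are Amd1, Amd2 and Azin1 above and Slc7a7 and Gamt below.

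By role, the transport genes had 0 of 5 higher and 1 lower on day 7, where 15.2% of all genes tested were higher and 7.32% lower. Slc7a7, the light chain of an exporter of cationic amino acids, was at 15.8 CPM in control and 7.23 CPM in heme, a ratio of 0.456 (interval 0.402 to 0.518). Slc3a2, the heavy chain that Slc7a7 and other light chains share, was at 102 and 196 CPM, a ratio of 1.92, and Slc7a1, the general arginine transporter CAT1, at 21.9 and 35.0 CPM, a ratio of 1.60. Transport genes thus lay on both sides, with Slc7a2 and Slc7a7 lower and the other 4 genes tested within 2-fold. Slc7a3, with 1 and 7 UMIs, did not reach the UMI minimum. Of the genes of arginine synthesis, urea and creatine, 0 of 4 were higher and 1 lower. As listed, this group also held Azin2, whereas Azin1 was listed with the polyamine genes. Gamt, which makes creatine, was at 20.6 and 9.69 CPM, a ratio of 0.471 (interval 0.422 to 0.525). Gatm, which takes arginine into the creatine pathway, was at 37.8 and 20.4 CPM, a ratio of 0.540, and Asl at 37.1 and 27.8 CPM, a ratio of 0.749.

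Of 6 tested genes of nitric oxide and its cofactor tetrahydrobiopterin, 0 were past 2-fold on day 7. Gch1, the entry enzyme of cofactor synthesis, was at 48.3 and 37.7 CPM, a ratio of 0.782, and Spr, its last enzyme, at 45.2 and 27.4 CPM, a ratio of 0.607. Of 13 polyamine genes, 3 were higher and 0 lower, against 15.2% and 7.32% of all genes tested. Azin1, which encodes an inhibitor of the antizymes that bind ornithine decarboxylase, was at 45.3 and 119 CPM, a ratio of 2.62 (interval 2.49 to 2.76), and it was already at 2.10 on day 0. Amd1, which makes the aminopropyl donor of polyamine synthesis, was at 10.0 and 20.6 CPM, a ratio of 2.06 (interval 1.84 to 2.30). Amd2 had a ratio of 2.52 from 10 and 33 UMIs. It aligned to Amd1 over 3202 bases at 99.6% identity, so their reads may be split either way. The antizyme gene Oaz1 was at 831 and 832 CPM, and Srm, the spermidine synthase gene, at 47.8 and 63.1 CPM, a ratio of 1.32. Of 6 genes that lead from ornithine to glutamate and proline, 0 were past 2-fold.

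The genes most like a member were ranked by Pearson's correlation of log2(CPM + 1) over the 10 cultures, among 7941 genes at a mean of 10 CPM or more. The cultures of a library share its preparation and depth, and no p-value is given. The genes most like Arg1 were Fam162a (r = 0.971), Trappc6a (0.936) and Auh (0.918). Those most like Slc7a2 were P4ha1 (0.977), Bnip3 (0.974) and Cdk5 (0.973), and those most like Nos2 were Arg1 (0.963), Auh (0.888) and Fam162a (0.887). Of each set of 3 genes, 2 remained with log2(CPM + 10). The correlations for Arg1 and Nos2 rest on their high level in the control culture of day 7.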

How the data were processed

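UMI counts were used as deposited, unnormalized, per gene and barcode. They came from 3′ single-cell libraries that the authors had processed in Cell Ranger, with empty droplets removed. The submitters' processing notes name version 4.0.0 and build GRCm38.p6, and the matrix headers version 5.0.0. The hashtag calls deposited by the authors are text from HTODemux of Seurat at a positive quantile of 0.99. Barcodes with 1 hashtag were kept without further limits, and doublets were treated through these calls only. Counts were summed per library and day and scaled to CPM, with Clopper-Pearson, Poisson and conditional ratio intervals at 95% (Python 3.11.15, scipy 1.17.1). Each group had 1 library, so no p-value was computed. All 6 members are named. Other pathway genes are named when past 2-fold on day 7 or to describe a group. The members and lists were chosen with earlier results of these data known. Alternatives were the cell limits of the study methods, 500 or more genes, other scalings (edgeR 4.0.16, DESeq2 1.42.0), other filters, an equal weight per cell, ratios net of day 3, other marker limits, thinning to 5000 UMIs (seed 1) and, chosen after seeing the data, leaving out barcodes of both libraries. Positions come from GENCODE M21 of GRCm38, whose transcripts were aligned with Biopython 1.88 and BLAST 2.17.0. The ratio, interval and thinning steps were tested on simulated data. Gene sequences are not reported here.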

Additional observations from a re-analysis of the deposited data

Results flagged for a closer look

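The ratio of heme to control of Slc7a2 was 2.12 on day 5 and 0.469 on day 7. It drew attention because the directions on these days were opposite, and the difference between the days was not tested, since each group was 1 culture on each day. The day 5 ratio net of that of day 3 was 1.35.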

How the results depend on the processing

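No paired analysis was possible because each group was 1 library and the results come from no test. Counts of members past 2-fold on day 7 stayed within 1.5 times under every alternative, a limit that can hide the loss of 1 call. No called ratio changed direction under any alternative. On earlier days the counts moved. Within the limits of the study methods, members numbered 0 higher and 1 lower on day 0, 0 lower on day 3 and 0 higher on day 5, and other pathway genes 1 lower on day 0, 0 higher and 1 lower on day 4 and 2 lower on day 5. With 500 or more genes, 2 members were higher and 1 lower on day 0. With median-centred ratios, TMM factors or DESeq2 size factors, members were 0 higher and 1 lower on day 0 and 0 higher on day 5, and other pathway genes 0 higher on days 0 and 5 and 1 higher on day 4. Other pathway genes lower on day 7 numbered 4, 5 and 4 with these scalings, and 1 was lower on day 5 with TMM and with DESeq2 and 1 on day 0 with DESeq2. Without ribosomal, mitochondrial, S100a8 and S100a9 UMIs in the total, 1 member was lower on day 0 and 0 higher on day 5. At a mean of 10 CPM, members were 0 higher on day 0, 0 lower on days 3 and 4 and 1 lower on day 5, since fewer genes were tested. On day 7 Nos2, at 2.12 CPM in control and 0.0364 CPM in heme, was under this limit and not called. Without a filter, 1 was lower on day 0, 1 higher on day 4 and 2 higher on day 5. With an equal weight per cell, members were 0 higher and 1 lower on day 5. Single values moved as well. Of 284 alternative values for shares of a member's UMIs by marker status, 228 lay outside the counting interval of the main value. So did 34 of 36 shares of cells with a UMI after thinning, and 107 of 224 ratios of members. The shares by status therefore hold for the marker limits and depth used. The cause of these moves was not tested unless stated. Depth limits Nos2 and, before day 7, Arg1.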
